A study of Mus musculus with 23 samples.

Results

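Transcripts of 10 genes of mitosis, *Mki67*, *Top2a*, *Cdk1*, *Ccnb1*, *Ccnb2*, *Bub1*, *Aurkb*, *Plk1*, *Birc5* and *Cenpf*, were followed through cultures of primary mouse hippocampal neurons with and without the gene *Nedd8*. The 10 are among 56941 genes in the count tables, and all 10 were among the 14488 genes with enough counts to be tested. They were chosen because earlier results of these same data had shown them lower in CRE than in RFP cultures, so their values in that contrast are a description and support nothing. All cultures came from hippocampi of newborn mice homozygous for the conditional allele NEDD8cKO, and all were infected with a lentivirus on day 1. The virus of the control group encoded RFP, a red fluorescent protein, and the virus of the other group encoded the recombinase CRE together with RFP, which removes *Nedd8*. Both were driven by the promoter of the neuronal gene *Syn1*, so deletion is directed to neurons, and cells of other kinds in the dish need not carry it. No uninfected culture was sequenced among these libraries, and no agent that stops cell division is named for the medium. RNA was taken after 12 days in culture according to the sample labels, while the study's methods give a later day. The 23 libraries comprised 12 CRE and 11 RFP libraries. They are named here by group, by a digit read as the culture number, and by library number. In that reading, which the labels do not state, CRE 3-1 is library 1 of culture 3.

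Neurons are post-mitotic cells, whereas astrocytes, oligodendrocyte precursors and other progenitors, glial or neuronal, can go on dividing in the same dish. Genes of mitosis are transcribed from late S phase onwards and their mRNA is low in resting cells, so in a culture of this kind the signal is usually carried by the dividing fraction. NEDD8 is a small protein related to ubiquitin that is attached to cullins and so activates the cullin-RING ligases, a family of enzymes that mark many cell cycle proteins for degradation. In bulk RNA, fewer dividing cells and less mitotic mRNA in each cell cannot be told apart. The cell type that carries the 10 transcripts was not measured.

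The values rest on 21 libraries, 11 CRE and 10 RFP, that make up the count table supplied with the study. CRE 3-3 and RFP 3-2 are left out of them. The study's methods instead name CRE 1-3 and CRE 3-3 as removed from its differential analysis, so CRE 1-3 is kept here against them. Reads assigned to genes summed to between 7430401 and 17112815 per library in the 21, and to 1546796 in CRE 3-3. Levels are CPM, the counts of a gene relative to the library's total on a common scale, adjusted by the trimmed mean of M values. *Nedd8* lay between 5.92 and 17.96 CPM in the CRE libraries and between 44.1 and 76.0 in the RFP libraries, with no overlap. CRE 1-3 stood apart, with 0.261% of its counts on mitochondrial genes, as did RFP 2-4, with 3.43%, where the other 19 lay between 7% and 11.1%. The median log2 fold change of the 10 genes, CRE minus RFP, was -1.49 over the 21 libraries. It was -1.40 without CRE 1-3 and RFP 2-4, -1.47 over all 23 libraries, and -1.32 over the libraries that the study's methods keep.

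The 10 genes lie on 7 chromosomes, and their promoters were read from the mouse genome GRCm39 because promoters of mitosis genes are known for shared short elements. The cell cycle genes homology region (CHR) is bound by complexes that repress transcription in resting cells and activate it in G2, and the CCAAT box is bound by NF-Y. The letters searched were TTTGAA for the CHR, TTCGAA for a variant of it, and CCAAT, on both strands, within 250 bases before and 50 after the first base of the canonical transcript. At least 1 form of the CHR was found in 7 of the 10 promoters (70%), against 18.8% of 21770 promoters of protein-coding genes, 42.7% of 117 other mitosis genes and 8.57% of 35 genes of S phase. A CCAAT box was found in 9 of the 10, against 39.9% of all promoters, 54.7% of the other mitosis genes and 57.1% of the S phase genes. More than 1 of them was found in 7 of the 10, against 12.7%, 29.1% and 31.4%. These matches are a description of the letters in this window. The 200 bases before the first transcribed base are given for 5 of the genes that hold a match there and for *Mki67*, the most abundant of the 10, which holds none in that stretch. Capitals mark the CHR, its variant and the CCAAT box on either strand.
Cdk1, chr10:69188769-69188968, minus strand: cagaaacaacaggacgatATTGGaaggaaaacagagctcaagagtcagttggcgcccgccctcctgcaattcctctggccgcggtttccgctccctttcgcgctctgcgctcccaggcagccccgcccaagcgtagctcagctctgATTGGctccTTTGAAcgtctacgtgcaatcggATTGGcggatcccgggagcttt
Top2a, chr11:98915042-98915241, minus strand: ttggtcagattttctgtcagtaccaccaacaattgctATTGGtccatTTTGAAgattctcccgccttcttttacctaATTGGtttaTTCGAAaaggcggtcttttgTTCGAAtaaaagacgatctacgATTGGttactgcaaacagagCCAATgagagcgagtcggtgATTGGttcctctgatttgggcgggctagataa
Ccnb2, chr9:70328875-70329074, minus strand: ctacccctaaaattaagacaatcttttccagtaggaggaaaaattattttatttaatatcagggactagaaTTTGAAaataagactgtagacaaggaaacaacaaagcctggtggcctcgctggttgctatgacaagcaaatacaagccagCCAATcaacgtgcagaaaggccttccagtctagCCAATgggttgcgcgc
Aurkb, chr11:68936267-68936466, plus strand: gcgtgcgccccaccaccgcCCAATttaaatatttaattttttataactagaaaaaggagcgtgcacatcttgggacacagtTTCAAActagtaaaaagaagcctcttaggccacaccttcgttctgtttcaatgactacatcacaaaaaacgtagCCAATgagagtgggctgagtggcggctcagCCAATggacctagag
Bub1, chr2:127673807-127674006, minus strand: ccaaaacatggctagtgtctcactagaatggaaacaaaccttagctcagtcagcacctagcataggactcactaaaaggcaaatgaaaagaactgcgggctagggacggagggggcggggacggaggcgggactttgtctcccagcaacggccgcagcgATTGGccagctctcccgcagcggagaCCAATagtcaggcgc
Mki67, chr7:135318300-135318499, minus strand: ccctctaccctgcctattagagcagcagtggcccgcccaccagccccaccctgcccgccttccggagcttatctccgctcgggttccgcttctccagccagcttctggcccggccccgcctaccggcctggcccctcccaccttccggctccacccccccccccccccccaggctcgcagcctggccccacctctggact
In the *Cdk1* promoter the CHR began 45 bases before the first base, with 4 bases between it and a CCAAT box on the other strand. The *Top2a* promoter held both CHR forms and 5 of its CCAAT boxes in the stretch shown. The *Bub1* stretch held only CCAAT boxes, and its variant CHR lay 42 bases into the transcript. *Mki67* had its CCAAT boxes just inside the transcript, beginning at bases 4 and 26, and no CHR. *Ccnb1* likewise had a single CCAAT box at base 24, and *Birc5* had no match to any of the 3 motifs.

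*Mki67* (chr7:135291513-135318299, minus strand) encodes a protein that coats mitotic chromosomes and is the usual marker of cycling cells, and *Top2a* (chr11:98883769-98915062, minus strand) encodes the topoisomerase that untangles sister chromatids. In the 10 RFP libraries *Mki67* had a lowest, median and highest level of 64.7, 89.4 and 118 CPM, and in the 11 CRE libraries of 0.136, 18.8 and 60.3 CPM. It was the only one of the 10 genes for which every CRE library lay below every RFP library, a pattern that 2.10% of all 14382 genes with a CPM in all 23 libraries showed. The RFP mean was 88.9 ± 16.9 CPM (SD, n = 10), the CRE mean was 23.6 ± 18.9 CPM (SD, n = 11), and the fitted log2 fold change was -1.93 (SE 0.41). *Top2a* ranged over 38.9, 62.6 and 80.7 CPM in RFP and over 1.36, 17.3 and 52.3 CPM in CRE libraries. CRE 3-1 and CRE 3-4, at 52.3 and 47.0 CPM, lay inside the RFP range, and the other 9 CRE libraries below it. The fitted log2 fold change of *Top2a* was -1.51 (SE 0.35). The lowest library for both genes was CRE 1-3, where they had 1 and 10 counts.

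The switch into mitosis is made by the kinase CDK1, encoded by *Cdk1* (chr10:69170976-69236595, minus strand), with its B-type cyclins, encoded by *Ccnb1* (chr13:100915153-100923116, minus strand) and *Ccnb2* (chr9:70314966-70328874, minus strand). *Plk1* (chr7:121758646-121769108, plus strand) encodes the polo-like kinase that acts with them on centrosomes and on the entry into mitosis. *Cdk1* had a lowest, median and highest level of 4.45, 7.58 and 13.7 CPM in RFP and of 0.409, 3.18 and 6.61 CPM in CRE libraries. RFP 1-2 was the lowest control library, and CRE 2-4, CRE 3-1 and CRE 3-4 lay above it. The fitted log2 fold change was -1.49 (SE 0.36). *Ccnb1* ran over 14.3, 17.5 and 27.0 CPM in RFP and over 0, 3.93 and 32.2 CPM in CRE libraries. CRE 3-1, at 32.2 CPM from 349 counts, was the highest of all 21 libraries, while the other 10 CRE libraries, at most at 8.63 CPM, were below every RFP library. No count of *Ccnb1* was found in CRE 1-3, which allows up to 0.409 CPM there. The log2 fold change of -1.39 (SE 0.45) thus averages over groups of which 1 holds both extremes. For *Ccnb2* the levels were 3.09, 4.79 and 11.7 CPM in RFP and 0.608, 1.67 and 4.69 CPM in CRE libraries. Here CRE 3-2 and CRE 3-4 were inside the RFP range, and CRE 3-1 was not. *Plk1* had levels of 3.92, 7.69 and 15.4 CPM in RFP and 0.658, 2.63 and 7.65 CPM in CRE libraries, with CRE 3-1 and CRE 3-4 close to the RFP median. The fitted log2 fold changes of *Ccnb2* and *Plk1* were -1.35 (SE 0.31) and -1.29 (SE 0.35).

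The remaining members act where chromosomes meet the spindle. *Bub1* (chr2:127643036-127673806, minus strand) encodes a kinase of the spindle checkpoint, and *Cenpf* (chr1:189372752-189420315, minus strand) a large protein of the outer kinetochore. *Aurkb* (chr11:68936467-68944764, plus strand) and *Birc5* (chr11:117740040-117746581, plus strand) encode Aurora B and survivin, partners in the chromosomal passenger complex that corrects attachments and guides cytokinesis. *Bub1* had a lowest, median and highest level of 2.50, 6.45 and 12.3 CPM in RFP and of 0, 1.23 and 3.50 CPM in CRE libraries. Its fitted log2 fold change of -2.20 (SE 0.49) was the largest of the 10. CRE 1-2 and CRE 1-3 had no count of it, which allows up to 0.219 and 0.409 CPM, and these limits cover counting error only. *Cenpf* ran over 18.1, 28.6 and 44.7 CPM in RFP and over 0.409, 8.97 and 23.8 CPM in CRE libraries. CRE 2-4, CRE 3-1 and CRE 3-4 overlapped the RFP range. *Aurkb* had levels of 7.03, 9.42 and 20.4 CPM in RFP and of 0, 3.28 and 10.8 CPM in CRE libraries, and *Birc5* had 4.85, 8.22 and 19.8 CPM in RFP and 0.768, 3.27 and 10.2 CPM in CRE libraries. For both, CRE 3-1 and CRE 3-4 were inside the RFP range and the other 9 CRE libraries below it. Fitted log2 fold changes were -1.49 (SE 0.38) for *Cenpf*, -1.61 (SE 0.47) for *Aurkb* and -1.28 (SE 0.34) for *Birc5*. In the left-out library CRE 3-3, *Birc5* stood at 16.4 CPM from 24 counts and *Plk1* at 8.19 CPM from 12 counts, while *Top2a* had 1 count and *Bub1* none.

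**Figure D1:**
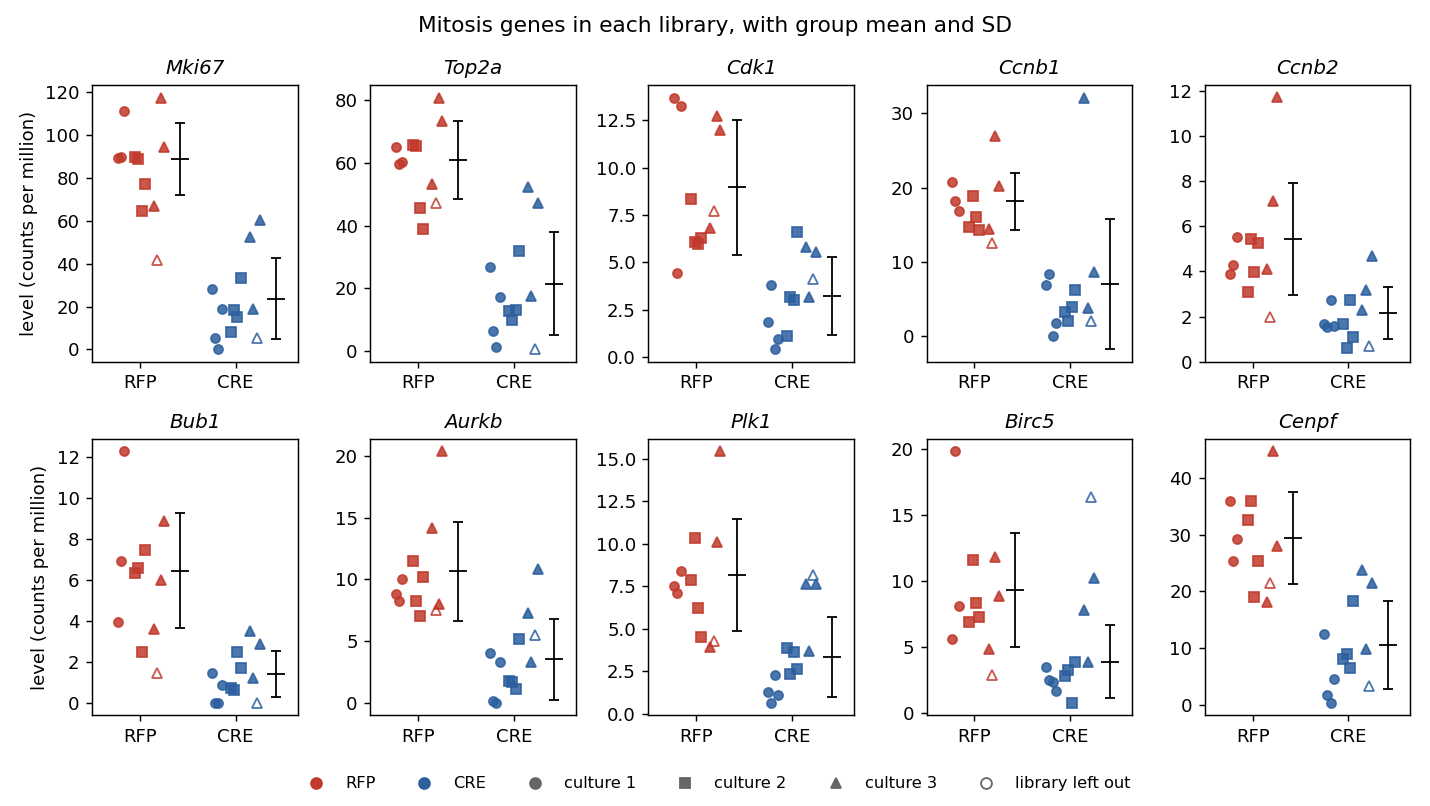
Level of each of the 10 mitosis genes in CPM (vertical axis, linear, scaled separately for each gene) in RFP (red) and CRE (blue) libraries, with the marker shape for the culture, open markers for the 2 libraries left out, and a bar for the mean and SD of the 21 libraries. *Mki67* is separated between the groups in the 21 libraries, *Ccnb1* has 1 CRE library at 32.2 above all others, and the other 8 genes have 2 or 3 CRE libraries inside the RFP range.

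All 10 genes were called lower in CRE at an adjusted p under 0.05 by edgeR's quasi-likelihood test, where 13.8% of the genes tested were called lower and 16.4% higher. Since that contrast chose them, nothing is read from their count. Per kilobase of exon, mean levels in the RFP libraries ran from 8.66 ± 1.64 CPM per kb for *Mki67* (SD, n = 10) through 6.66 ± 1.36 for *Top2a* and 4.23 ± 0.91 for *Ccnb1* to 1.42 ± 0.62 for *Bub1*. *Mki67* was above *Top2a*, and *Top2a* above *Ccnb1*, in 10 of 10 RFP libraries. From *Aurkb* at 2.98 CPM per kb downwards, through *Plk1*, *Ccnb2*, *Birc5*, *Cenpf* and *Cdk1*, each gene exceeded the next in 4 to 8 of 10 libraries, so these neighbours were not separated. In mean CPM per kb in the RFP libraries, *Mki67* exceeded 71.8% and *Bub1* 26.6% of the genes that passed the filter and had an annotated length. Exons of *Cdk1*, *Plk1* and *Cenpf* overlap genes on the opposite strand by 49, 160 and 486 bases, and *Top2a* overlaps a small gene on its own strand by 122 bases. The strand setting of the counting is not given in the sources used here, so reads from these stretches cannot be assigned with certainty.

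Added over the 10 genes, the mean level of the RFP libraries was 246 ± 46.7 CPM (SD, n = 10) and that of the CRE libraries 80.2 ± 59.4 CPM (SD, n = 11). The RFP libraries lay between 179 and 326 CPM with a median of 250, and the CRE libraries between 9.67 and 195 CPM with a median of 52.4. CRE 3-1 at 195 and CRE 3-4 at 179 reached the lower end of the RFP range, CRE 2-4 stood at 111, and the other 8 CRE libraries were at or below 87.9 CPM. Spread relative to the mean was larger in CRE for each gene: the coefficient of variation ran from 19% for *Mki67* to 46.4% for *Birc5* in RFP and from 52.5% for *Ccnb2* to 126% for *Ccnb1* in CRE libraries. These sums rest on 1841 to 4116 counts per RFP library and on 71 to 2138 counts per CRE library, with the 71 in CRE 1-3.

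**Figure D2:**
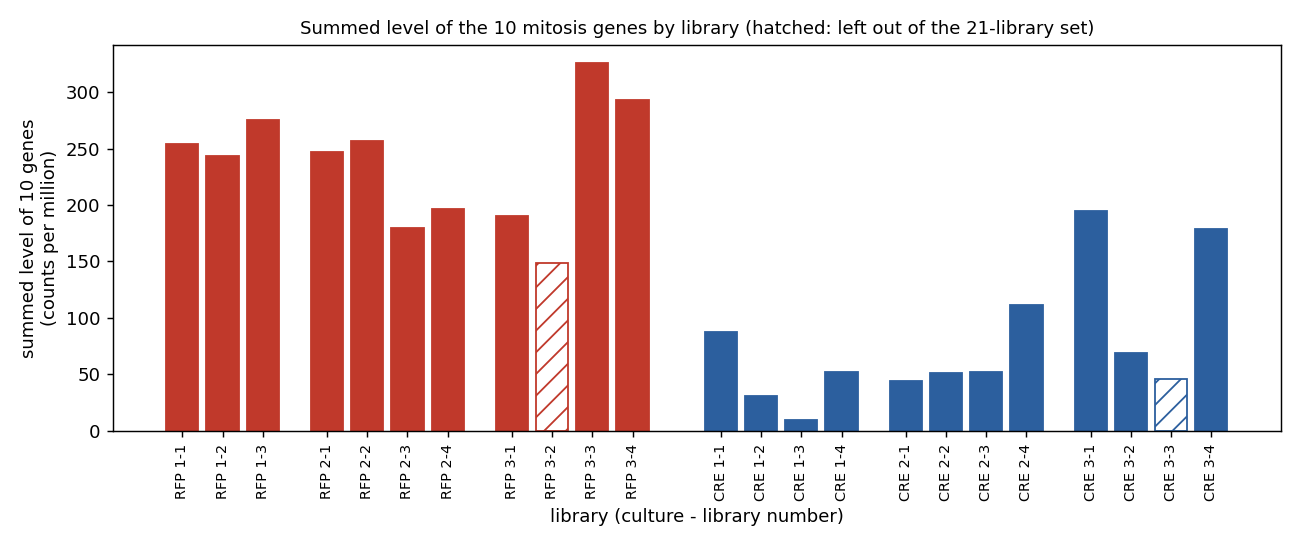
Summed level of the 10 mitosis genes in CPM (vertical axis, from 0) in each library (horizontal axis, grouped by condition and culture), with hatched bars for CRE 3-3 and RFP 3-2. RFP libraries of the 21 lie between 179 and 326, and CRE 3-1 and CRE 3-4 stand highest among the CRE libraries.

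Culture numbers were taken from the digit that precedes the hyphen of each library's name, a reading that neither the labels nor the study states in words. In culture 1, all 10 genes had every CRE library (n = 4) below every RFP library (n = 3), where 11.3% of all genes did. In culture 2, this held for 9 of 10, *Cdk1* being the exception (n = 4 and 4), against 11.4% of all genes. In culture 3 it held for 4 of 10, *Mki67*, *Top2a*, *Cdk1* and *Bub1* (n = 3 and 3), against 14.5% of all genes. The summed level in CRE libraries averaged 45.1 ± 33.4 CPM (SD, n = 4) in culture 1, 64.7 ± 31.1 (n = 4) in culture 2 and 148 ± 68.9 (n = 3) in culture 3, while the RFP means were 258, 220 and 270 CPM. Fitted log2 fold changes of *Mki67* were -2.89, -2.11 and -1.09 in cultures 1, 2 and 3. Those of *Birc5* were -2.19, -1.69 and -0.22, and those of *Ccnb2* -1.32, -1.56 and -1.17. A difference closest to 0 was fitted in culture 3 for 9 of the 10 genes, the exception being *Cdk1*, at -0.96 in culture 2 and -1.12 in culture 3.

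Whether these differences between cultures exceeded the spread between libraries was tested with an interaction of culture and condition, a contrast the choice of genes did not use. With edgeR's quasi-likelihood test, 0 of the 10 genes passed an adjusted p under 0.05, and 0.00690% of all genes tested did, a single gene. At an unadjusted p under 0.05, *Plk1* (p = 0.0269, edgeR's test) and *Birc5* (p = 0.0391) passed, 2 of 10, against 4.11% of all genes. The adjusted p ran from 0.977 to 0.986 over the 10 genes, and DESeq2's likelihood ratio test also called 0 of them. With 3 or 4 libraries in each cell of the design the standard errors within cultures were 0.43 to 0.84 on the log2 scale. Under this fit the differences between cultures were not shown to exceed the spread between libraries. The fit depended on the filter on low counts: with every gene that had a count kept, *Mki67* was called (adjusted p = 0.0242, edgeR's test), 1 of 10, against 0.269% of all genes, and 7 of 10 passed an unadjusted p under 0.05, against 6.11%. These shares include genes with too few counts to pass the filter. Of the 14488 genes that pass it, as all 10 do, 76 were called in that fit at an adjusted p under 0.05. Among the RFP libraries alone, the 3 cultures were compared in the same way. None of the 10 genes passed (edgeR's quasi-likelihood test, adjusted p 0.66 to 0.99, 0 of 10 at an unadjusted p under 0.05, and 0 with DESeq2's likelihood ratio test), where 0.542% of all genes tested did.

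**Figure D3:**
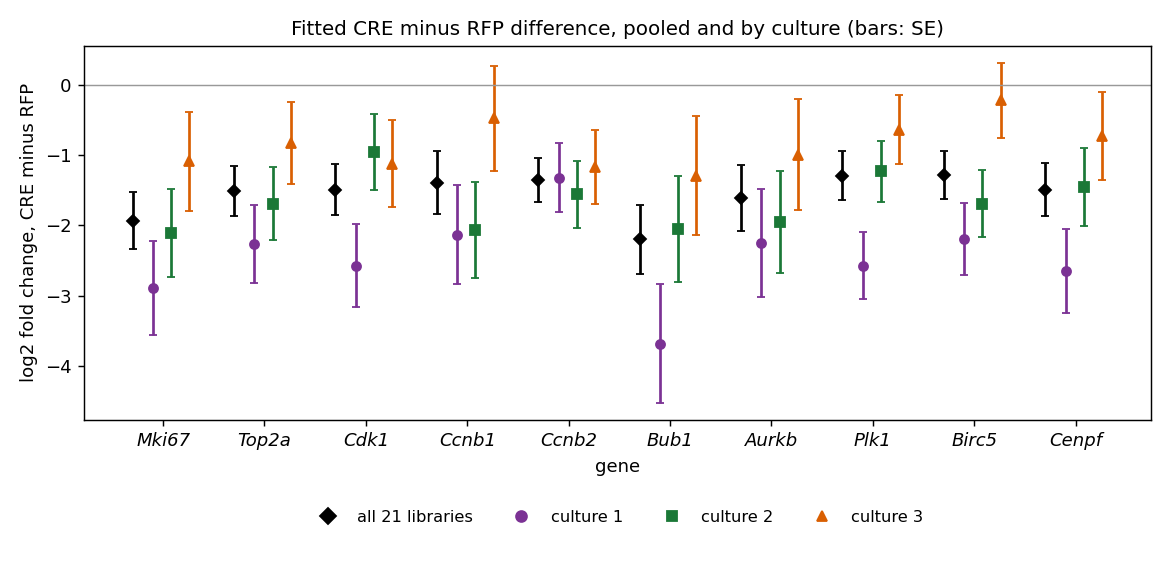
Fitted log2 fold change, CRE minus RFP (vertical axis), of each gene (horizontal axis) over all 21 libraries (black diamonds) and within culture 1, 2 and 3 (coloured markers), with bars for 1 SE. The pooled values lie between -2.20 and -1.28, and the value of culture 3 is the nearest to 0 for 9 genes.

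The rest of the mitotic machinery was described with 117 other genes in 6 lists, of which 111 were tested. Of these, 44 were called lower in CRE, none was called higher by edgeR (1, *Pttg1*, at an unadjusted p under 0.05, 0 with DESeq2 and 1 with limma-voom), and 100 had a negative fitted log2 fold change. Their median log2 fold change was -0.75, against 0.02 over all genes tested, of which 13.8% were called lower. Without CRE 1-3 the number called lower was 49, without CRE 1-3 and RFP 2-4 it was 48, and over all 23 libraries 38. With counts summed per culture it was 30. Leaving out culture 2 lowered it to 10 and leaving out culture 1 to 26. Adjusted p-values named for these lists are from edgeR's quasi-likelihood test over all genes.

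Among kinases and cyclins of mitotic entry, 6 of 13 tested were called lower and none higher. *Ccna2*, cyclin A2, averaged 27.6 ± 5.21 CPM in RFP (SD, n = 10) and 7.20 ± 5.35 in CRE (n = 11), with every CRE library below every RFP library and an adjusted p of 5.67e-05 by edgeR. *Cdc25c*, the phosphatase that releases CDK1 from inhibition, was called lower at a log2 fold change of -2.23 (SE 0.56). *Haspin*, a histone kinase, fell by 1.63 and *Ttk*, the checkpoint kinase MPS1, by 1.43 on the log2 scale. Spindle motors and assembly factors had the largest number among the 6 lists, 14 of 25 called lower with a median of -1.10. *Hmmr*, which binds spindle microtubules, went from 8.95 ± 2.97 to 2.56 ± 1.53 CPM, and *Nusap1*, *Kif20a* and *Kif2c* were called lower at log2 fold changes of -1.47, -1.44 and -2.10.

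Of kinetochore and checkpoint genes, 11 of 33 tested were called lower. *Knl1*, the scaffold that binds BUB1, had a log2 fold change of -2.28 (SE 0.41), *Bub1b* -1.52, *Incenp*, the scaffold of the passenger complex, -0.75, and *Spag5* -0.96. In the condensin and chromatid separation list 4 of 12 were called lower, namely *Espl1* (separase, -1.30), *Esco2* (-1.70), *Ncapg* (-1.34) and *Ncaph* (-1.44). Cytokinesis genes were called lower in 6 of 9 tested, among them *Anln* (-1.23), *Cep55* (-2.05), *Racgap1* (-0.88) and *Cit* (-0.65). The anaphase-promoting complex and its partners had 3 of 19 called lower, *Cdc20* (-1.48), *Ube2c* (-1.67) and *Fbxo5* (-1.18), with a list median of -0.07. *Cdc20* is its activator, *Ube2c* its conjugating enzyme and *Fbxo5* its inhibitor. The other 16 genes of that list, at log2 fold changes between -0.49 and 0.25, were not called.

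Regulators of transcription in G2 and M were mixed, with 7 of 24 called lower and 3 higher. *Foxm1*, an activator of many mitosis genes, averaged 25.2 ± 6.62 CPM in RFP and 11.1 ± 4.09 in CRE libraries and was called lower at a log2 fold change of -1.20 (SE 0.21). *Tfdp1*, a partner of E2F proteins, was called lower at -0.54. *Tfdp2*, a related partner, was called higher at 0.79 and *E2f6*, a repressor of the E2F family, at 0.62. Of 35 genes of S phase, 11 were called lower and none higher, with a median of -0.44. *Rrm2*, an enzyme of nucleotide supply, had a log2 fold change of -0.89, *Mcm2*, a subunit of the replicative helicase, -0.81, and *Uhrf1*, which maintains DNA methylation, -1.35. Leaving out culture 2 lowered the number of S phase genes called lower to 2, and leaving out culture 1 to 7.

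**Figure D4:**
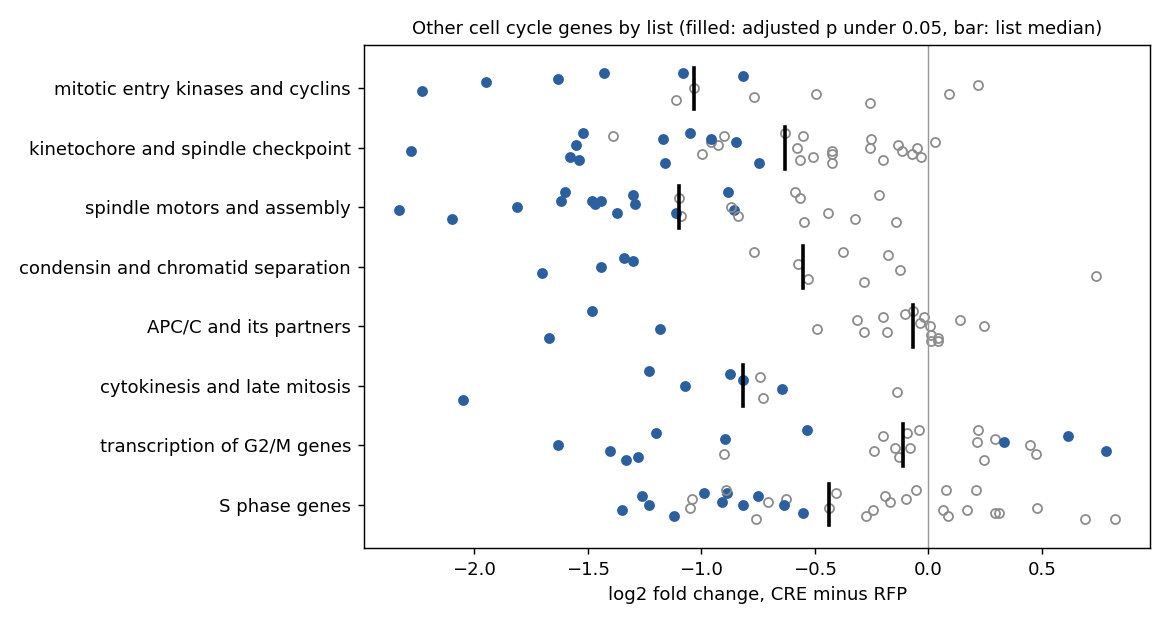
Log2 fold change, CRE minus RFP (horizontal axis), of each tested gene in 8 lists of other cell cycle genes (vertical axis), filled where the adjusted p was under 0.05, with a black bar at the list median. The medians of the spindle list (-1.10) and of the mitotic entry list (-1.03) lie farthest from 0, and that of the anaphase-promoting complex list (-0.07) nearest.

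The variation that remained after the group mean was subtracted was compared between genes over the 21 libraries, on log2 CPM. The correlation of each member with the mean of the other 9 ran from 0.18 for *Ccnb2* to 0.96 for *Top2a*. Outside the 10, the genes most like their mean were *Ccna2* (Pearson's r = 0.94), *Prc1* (0.92), *Tpx2* (0.91), *Pclaf* (0.91), *Knstrn* (0.91), *Ckap2l* (0.90), *Cenpa* (0.90), *Col25a1* (0.90), *Kif15* (0.89) and *Galntl6* (0.89). The values of a library share its depth and scaling, and these correlations are a description over 21 points. Among the 50 genes most like the mean, 11 were in the mitosis lists and 2 in the S phase list. Without CRE 1-3 and RFP 2-4, *Kif18b* (0.92), *Kif14* (0.91) and *Knstrn* (0.89) led, the 50 held 15 and 3 such genes, and the correlation of a member with the mean of the others ran from 0.46 for *Ccnb2* to 0.93 for *Top2a*.

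Markers of cell types that can divide were read in the same libraries. Of 12 markers of oligodendrocyte precursors, 9 were called lower and 1, *Matn4*, higher in CRE, with a median log2 fold change of -2.21 (adjusted p by edgeR 0.00866 for *Pdgfra*, the receptor that marks these cells). *Pdgfra* had a lowest, median and highest level of 51.4, 281 and 324 CPM in RFP and of 0.136, 9.20 and 174 CPM in CRE libraries. The 3 CRE libraries with the highest summed level of the mitosis genes, CRE 3-1, CRE 3-4 and CRE 2-4, also had the highest *Pdgfra*, at 146, 174 and 78.6 CPM, where the other 8 were at or below 24.03. Among the RFP libraries RFP 3-1 had the lowest *Pdgfra*, at 51.4 CPM, and a summed level of the mitosis genes of 190 CPM, the second lowest. The other RFP libraries did not follow that order: RFP 2-3 had the lowest summed level, 179 CPM, with *Pdgfra* at 294 CPM. RFP 3-3 and RFP 3-4 had the highest summed levels, 326 and 293 CPM. Their *Pdgfra*, at 211 and 207 CPM, was lower than in every RFP library of cultures 1 and 2. *Sox10* was at 0 in 3, *Gpr17* in 2, *Bcas1* in 1 and *Neu4* in 7 of 11 CRE libraries, and in none of the RFP libraries. *Olig1* was not called, at 734 ± 129 CPM in RFP and 645 ± 360 in CRE libraries, and CRE 1-3 had the highest of the 21, at 1685. The summed level of all 12 markers was 758 to 2410 CPM in RFP and 502 to 2040 in CRE libraries, and 502 to 1226 without CRE 1-3. Their part in the lower level of the mitosis genes was not tested.

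**Figure D5:**
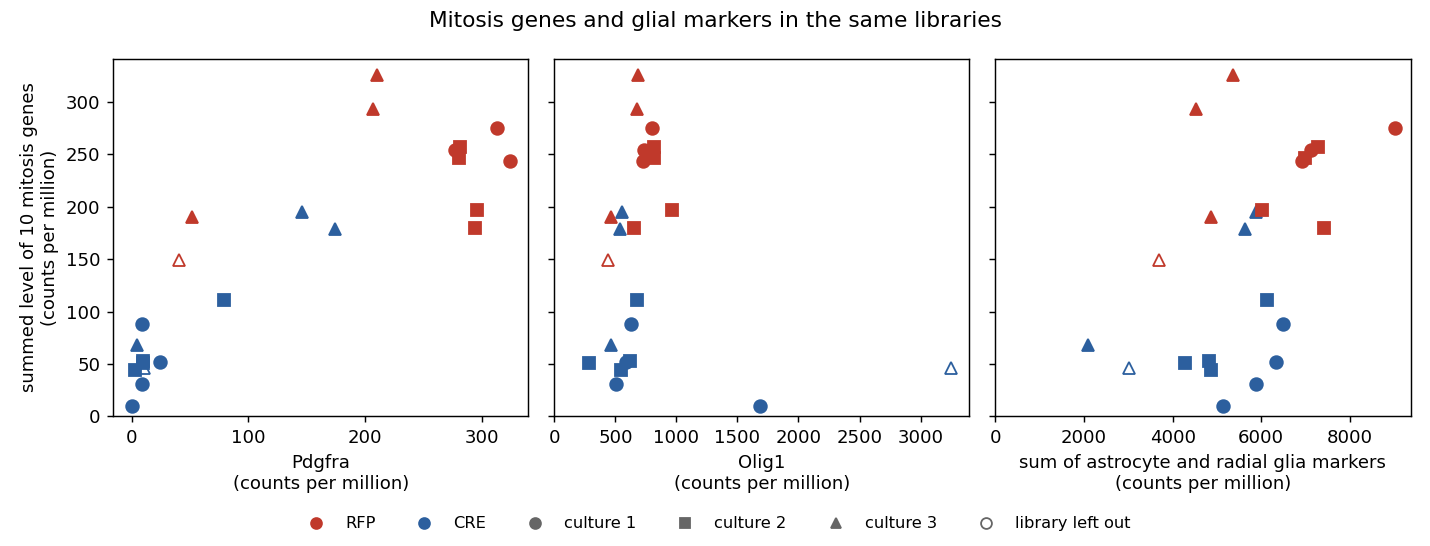
Summed level of the 10 mitosis genes (vertical axis, CPM) against the level of *Pdgfra*, of *Olig1* and of 12 astrocyte and radial glia markers together (horizontal axes, CPM) in 23 libraries, coloured by group and shaped by culture, with the 2 left-out libraries open. CRE 3-1, CRE 3-4 and CRE 2-4 lie highest among the CRE libraries in *Pdgfra* and in the mitosis genes, and CRE 1-3, at 9.67, has 0.136 CPM of *Pdgfra*.

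Of 12 astrocyte and radial glia markers, 5 were called lower and 3 higher, and their summed level was 4530 to 9020 CPM in RFP and 2100 to 6490 in CRE libraries. Of the CRE libraries, CRE 3-1 and CRE 3-4 also had the highest *Gfap*, at 1042 and 1032 CPM. The same 2 had the highest *Aqp4*, at 366 and 301 CPM. CRE 2-4, at 691 and 171 CPM, did not come next in either gene. The summed level of the 12 markers was highest in CRE 1-1. The summed level of neural progenitor markers was 299 to 401 CPM in RFP and 791 to 1920 CPM in CRE libraries, and *Nes* made up this difference. Without *Nes* the sum was 220 ± 29.9 CPM (SD) in the 10 RFP libraries, while the 11 CRE libraries averaged 208 ± 59.1 CPM. Of the 9 that were tested 2 were called higher and 2 lower. *Nes*, the intermediate filament nestin, rose from 126 ± 16.7 to 977 ± 305 CPM, with every CRE library above every RFP library. *Pax6* rose from 8.95 ± 3.14 to 23.7 ± 7.73 CPM. *Hes5*, a target of Notch signalling, fell, at a log2 fold change of -3.27. *Sox2* was not called, at 107 ± 18.5 and 112 ± 37.0 CPM.

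Neuron markers were called lower in 7 of 10 and higher in 1, with sums of 6870 to 8280 CPM in RFP and 3510 to 6850 in CRE libraries. Mature oligodendrocyte markers were called lower in 4 of 7 tested, with sums of 73.8 to 380 and 93.6 to 139 CPM. Microglia markers were near the limit of detection, with sums of 2.46 to 6.81 CPM in RFP and 3.15 to 8.21 in CRE libraries, and 1 of 3 tested was called higher. Endothelial and mesenchymal markers, whose cells can also divide, had sums of 22.98 to 187 CPM in RFP and 84.2 to 498 in CRE libraries. *Rgs5*, at 25.3 ± 12.6 CPM in RFP and 147 ± 80.1 in CRE libraries, made up the largest part of this rise. Of 9 tested, 2 were called higher and 1 lower, and 2 had a negative fitted log2 fold change. Over all genes tested, 16.4% were called higher and 13.8% lower. *Cldn5* was at or under 3 counts in every library. Ependymal markers had 1 of 3 tested called higher, with sums of 9.29 to 37.6 and 8.67 to 56.5 CPM. The part of these cell types in the level of the mitosis genes was not tested.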

How the data were processed

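RNA of Nedd8cKO hippocampal cultures was measured in 23 libraries. Per the submitters' processing notes, bcl2fastq 2.20.0.422, STAR 2.7.8a and featureCounts 1.5.0-p1 were used with GRCm39, and the authors deposited raw counts per gene, whole numbers without normalization. The strand setting and the handling of reads with several matches are not given in the sources used here. A GENCODE annotation of GRCm39 named 56323 of 56941 genes, with 99.95% of the counts, and gave positions and promoters, which were read with pysam 0.24.0.

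The 10 members, the gene lists and the tests were chosen with earlier results of these data known. Genes named are the 10 members, up to 4 called genes with the smallest p in each pathway list, whole marker lists with markers at or under 3 counts, the 10 genes most like the members, and *Nedd8*. *Pdgfra*, *Sox10*, *Gpr17*, *Bcas1*, *Neu4*, *Olig1*, *Matn4*, *Nes*, *Pax6*, *Hes5*, *Sox2*, *Rgs5* and *Pttg1* fall outside that rule and were chosen after their values were seen. The same holds for *Gfap* and *Aqp4*. Not every gene taken by the rule is reported.

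Groups were taken from the labels. Over the 21 libraries of the supplied table, counts were tested with edgeR 4.0.16 in R 4.3.3 (filterByExpr, TMM, robust glmQLFit, glmQLFTest), and p-values were adjusted over every gene tested by Benjamini-Hochberg. The study's methods name CRE 1-3 and CRE 3-3 as the removed libraries, an alternative here. CPM used 14382 genes that passed the filter in 23 libraries. Likeness used log2 CPM with a prior count of 2. The study gives N = 3 for these RNA data, N counting animals or biological replicates. Nothing states that libraries of 1 culture number came from separate dishes or animals. The main fit took the 21 libraries as independent, without a term for culture. Its p-values thus measure the spread between libraries, which may be technical, and not the spread between 3 biological replicates. Depth is given as counts per library, and limits for a count of 0 rest on 3 counts and cover counting error only. Alternatives covered the libraries, DESeq2 1.42.0, limma-voom (limma 3.58.1), scaling, the filter, blocks, sums per culture and cultures left out, and those without CRE 1-3 alone were added after seeing the data. The fits were tested on simulated data. Figures were drawn with matplotlib 3.10.9.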

Additional observations from a re-analysis of the deposited data

Results flagged for a closer look

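In 4 of the 10 genes, 1 of the 10 RFP libraries lay far from the others by Dixon's ratio of its gap to the group's range, past the 95% critical value for 10 libraries. These were *Ccnb1* in RFP 3-3, at 27.0 CPM (ratio 0.494), *Ccnb2* in RFP 3-4, at 11.7 CPM (0.532), *Aurkb* in RFP 3-4, at 20.4 CPM (0.467), and *Birc5* in RFP 1-2, at 19.8 CPM (0.537). All 4 were high values. The critical value holds for normally distributed values, of which chance alone flags about 1 in 20 groups. Whether the CPM of these genes follow that distribution was not tested, so the 4 cannot be set against that rate. The CRE group, with 11 libraries, was not tested for such values.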

How the results depend on the processing

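The fitted log2 fold change of each of the 10 genes kept its sign in all 15 alternatives, from -2.57 to -1.54 for *Mki67* and from -1.94 to -0.88 for *Birc5*, and their median lay between -1.97 and -1.14. The number of the 10 called lower was 9 over all 23 libraries and 9 with no filter on low counts. It was 7 with counts summed per culture, and 7, 4 and 10 without culture 1, 2 and 3. Over all genes tested, 1996 were called lower in the 21 libraries, 1692 over all 23 and 2553 with no filter. They numbered 2032 with counts summed per culture, and 1823, 803 and 1628 without culture 1, 2 and 3. Over all genes 4370 were called in either direction, 6920 with no filter, and between 2114 and 3730 with 1 culture left out, the fewest without culture 2. Other mitosis genes called lower, 44 in all, numbered between 10 and 46 with 1 culture left out, and S phase genes called lower, 11 in all, between 2 and 13. *Pttg1*, an inhibitor of separase, was the 1 other mitosis gene called higher without CRE 1-3 and RFP 2-4, and the 1 with limma-voom, where edgeR on the 21 libraries called 0 (log2 fold change 0.74, adjusted p = 0.125). In the interaction of culture and condition 1 of the 10 genes, *Mki67*, was called with no filter, and 0 under the other alternatives. The causes of these differences were not tested. Leaving out a culture also leaves fewer libraries.

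Library numbers shared by the groups did not pair the libraries: deviations from the group means correlated between -0.06 and 0.11 over 9 pairs, and 1 of 9 CRE libraries correlated best with its own number. Over 28 pairs with the same culture number but another library number, the median correlation was 0.0371 (-0.208 to 0.225). Over 73 pairs with different culture numbers it was -0.0105 (-0.253 to 0.504). These correlations gave little sign of a culture shared by the groups. With culture and library number as a block, the median of the 10 genes was -1.75, 31 other mitosis genes and 8 S phase genes were called lower, and 3121 genes were called in all. Genes near 1 CPM, such as *Bub1* in CRE libraries, rest on few counts, and differences between cultures rest on 3 or 4 libraries per group.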
